A study of Mus musculus with 12 samples.

Results

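Use of immunoglobulin heavy chain variable segments was examined in bulk RNA-seq libraries of sorted migratory dendritic cells (DCs). The segments were all rows of the deposited gene tables whose symbol begins with Ighv, 185 of 55401 rows, or 183 distinct symbols, since Ighv1-13 and Ighv5-8 each stand on 2 rows. The samples were liver, duodenum and pancreas of B6 mice aged 6 to 8 weeks, with no treatment or allele named in the labels, 4 libraries a tissue and 12 in all. Every library pooled the tissue of 2 mice, so the libraries of a tissue are separate pools. The sort took live CD45+ LIN- CD11c+ MHCIIhi CD103+ CD11b- cells, and the labels do not say which markers made up the lineage mix. Library totals ran from 220899155 to 356073067 estimated counts (median 267576975). The sorted cell type carried its markers: Xcr1, a chemokine receptor of type 1 conventional DCs, stood at 360 to 702 CPM (the count scaled to the library total), and Clec9a, a receptor for dead cells, at 229 to 436 CPM. Liver 2, pancreas 3 and pancreas 4 stood apart from the other libraries of their tissues in Ighv counts, and the tissue comparisons of summed level, concentration and evenness and those of the main segments are also given without them. These 3 libraries were picked by their Ighv counts after these were seen. The p-values without them are therefore descriptive and no test of the tissues.

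Each B cell joins 1 variable (V), 1 diversity (D) and 1 joining (J) segment into its heavy chain gene, and its progeny keep that V segment. A plasma cell fills most of its RNA with the rearranged heavy chain and light chain, so a few plasma cells can give many reads of a few V segments, whereas many B cells with different rearrangements spread their reads over many segments. The gut wall holds plasma cells that secrete IgA, whose polymers are linked by the J chain (Jchain). Segments annotated as pseudogenes cannot encode a working heavy chain.

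In the GENCODE vM21 annotation (build GRCm38), which differs from the build of the deposited tables, all 185 rows were found on chromosome 12, 183 of them on the minus strand. They comprised 113 V genes, 70 V pseudogenes (37.8% of rows) and 2 rows of the annotation's IG_LV type, in 16 families. Ighv1 was the family with the most rows, 93. Many segments resemble each other closely. Of the 31-base words of a segment's transcript, the median share found in no other annotated gene was 58.2% over all rows, and 2 rows had no such word. How the authors' quantification divided reads between near-identical segments is not given in the sources used here, so shares of close pairs are uncertain. The segments on which the results turn are printed below from vM21, each by bases 1 to 300 from its start codon, in lower case with capitals for the bases covered by words that no other vM21 gene holds. Ighv1-53 was high in all 4 duodenum libraries and led liver 2, Ighv1-55 was the second segment of liver 2, Ighv11-2 led pancreas 3 and 4, Ighv10-3 led duodenum 2, and Ighv1-72 is shown as a segment with little sequence of its own.
Ighv1-53: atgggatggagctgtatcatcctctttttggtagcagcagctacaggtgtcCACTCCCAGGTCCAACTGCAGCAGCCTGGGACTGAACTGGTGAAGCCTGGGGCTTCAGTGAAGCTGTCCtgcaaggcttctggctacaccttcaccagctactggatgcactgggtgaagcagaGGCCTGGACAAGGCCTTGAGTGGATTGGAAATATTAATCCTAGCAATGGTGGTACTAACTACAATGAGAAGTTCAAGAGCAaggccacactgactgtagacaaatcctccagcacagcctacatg
Ighv1-55: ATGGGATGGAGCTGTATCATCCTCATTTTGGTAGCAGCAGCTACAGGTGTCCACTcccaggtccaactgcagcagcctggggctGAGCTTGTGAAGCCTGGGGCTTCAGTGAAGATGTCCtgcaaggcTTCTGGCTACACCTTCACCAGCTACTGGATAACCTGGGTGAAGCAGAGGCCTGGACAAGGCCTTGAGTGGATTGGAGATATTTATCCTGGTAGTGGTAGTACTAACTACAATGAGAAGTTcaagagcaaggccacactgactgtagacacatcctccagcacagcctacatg
Ighv11-2: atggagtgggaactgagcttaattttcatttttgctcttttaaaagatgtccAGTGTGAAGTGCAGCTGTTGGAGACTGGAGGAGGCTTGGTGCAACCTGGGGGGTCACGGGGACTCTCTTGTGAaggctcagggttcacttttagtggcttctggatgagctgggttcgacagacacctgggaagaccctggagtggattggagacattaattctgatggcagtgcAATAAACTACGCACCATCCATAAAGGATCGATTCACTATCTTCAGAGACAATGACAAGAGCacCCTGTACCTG
Ighv10-3: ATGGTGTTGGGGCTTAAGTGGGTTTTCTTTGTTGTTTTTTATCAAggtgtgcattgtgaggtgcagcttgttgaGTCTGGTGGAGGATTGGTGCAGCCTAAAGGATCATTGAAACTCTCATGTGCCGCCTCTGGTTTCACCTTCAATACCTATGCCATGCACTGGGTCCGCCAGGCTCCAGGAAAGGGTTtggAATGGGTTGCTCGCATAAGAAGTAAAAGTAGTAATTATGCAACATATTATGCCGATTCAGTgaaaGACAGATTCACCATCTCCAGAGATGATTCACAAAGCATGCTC
Ighv1-72: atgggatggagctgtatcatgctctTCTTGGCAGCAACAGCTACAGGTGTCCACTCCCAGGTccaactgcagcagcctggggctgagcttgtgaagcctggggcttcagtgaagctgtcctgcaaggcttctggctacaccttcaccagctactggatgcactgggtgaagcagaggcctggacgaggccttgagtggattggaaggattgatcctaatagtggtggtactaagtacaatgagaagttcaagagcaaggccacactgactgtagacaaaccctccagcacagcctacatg
Unique words made up 27.1% of Ighv1-53, 33.6% of Ighv1-55, 32.5% of Ighv11-2, 59.3% of Ighv10-3 and 2.2% of Ighv1-72. Ighv11-2 shared 67.5% of its words with Ighv11-1, and Ighv1-72 shared 77.6% with Ighv1-62-3. Ighv1-53 and Ighv1-55 shared 33.0% of their words, and Ighv1-53 and Ighv1-72 41.7%.

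The summed level of the Ighv rows was far higher in duodenum than in the other tissues. Duodenum libraries 1 to 4 held 662, 1054, 759 and 953 CPM, from 151362, 375151, 202700 and 270104 Ighv counts. Liver libraries 1 to 4 held 6.83, 26.5, 4.55 and 8.00 CPM, from 1933, 8422, 1204 and 1768 counts. Pancreas libraries 1 to 4 held 7.62, 4.97, 20.7 and 40.0 CPM, from 2076, 1294, 5548 and 9953 counts. No liver or pancreas library reached any duodenum library. Among the liver libraries number 2 was high, and among the pancreas libraries numbers 3 and 4 were. The mean over 4 libraries was 11.5 ± 10.1 CPM (SD) for liver, 857 ± 178 CPM for duodenum and 18.3 ± 16.0 CPM for pancreas.

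The difference in the mean log2(CPM + 0.01) of summed Ighv was -6.55 for liver against duodenum and -5.98 for pancreas against duodenum. Both had p = 0.0286 in an exact two-sided permutation test over libraries, the smallest p that 4 against 4 libraries allow, and an adjusted p = 0.0429 over the 3 tissue pairs. Liver against pancreas gave -0.56 (exact permutation p = 0.571). Without liver 2, pancreas 3 and pancreas 4 the differences were -7.06 and -7.10 against duodenum, with exact permutation p = 0.0571 for 3 against 4 libraries and p = 0.133 for 2 against 4, the smallest these sizes allow, and the difference between liver and pancreas was 0.03. In bulk samples, fewer cells that carry these transcripts and less of the transcript in each cell cannot be told apart.

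**Figure D1:**
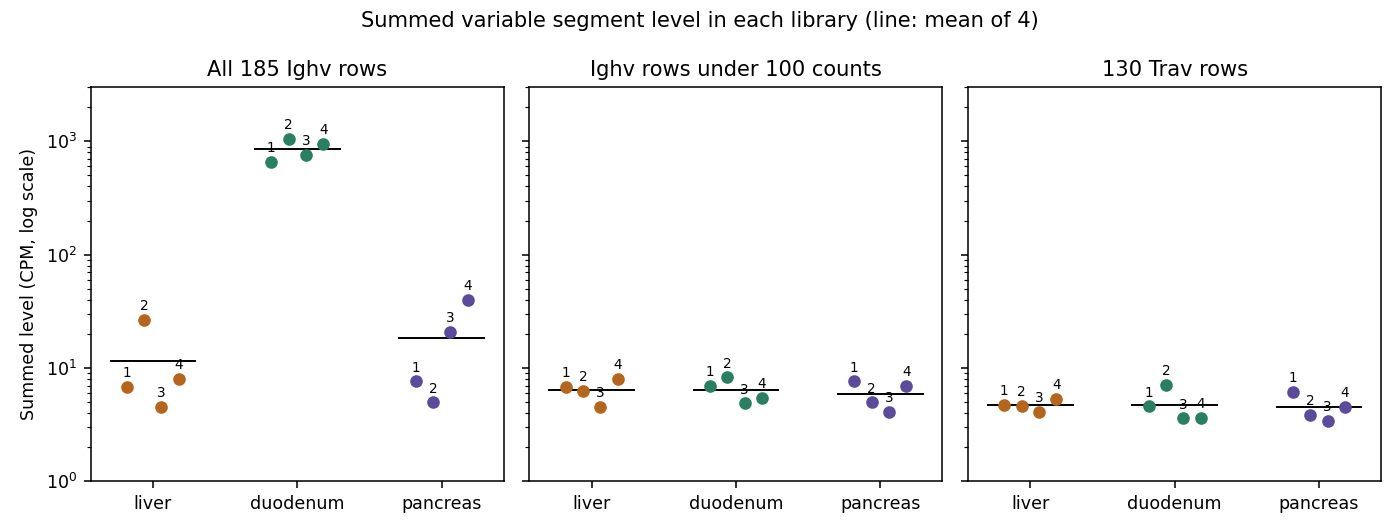
Summed level in each of the 12 libraries, in CPM on a log axis, for all 185 Ighv rows (left), for the Ighv rows under 100 counts in that library (middle) and for the 130 Trav rows (right). Points are libraries, numbered as in the text, and lines are means of 4. The 4 duodenum libraries lie between 662 and 1054 CPM in the left panel, while in the middle panel all libraries lie between 4.09 and 8.26 CPM.

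Below the segments with 100 or more counts, every library held a layer of low Ighv counts. The limit of 100 counts takes out the rows that rose in a library and caps the others, so the size and evenness of this layer are in part set by the limit and are given as a description. Summed over the rows with fewer than 100 counts in a library, it averaged 6.42 ± 1.43 CPM (SD) over the 4 liver, 6.37 ± 1.52 CPM over the 4 duodenum and 5.91 ± 1.65 CPM over the 4 pancreas libraries, with a range of 4.09 to 8.26 CPM over the 12 libraries. Pielou's evenness of this layer, which is 1 where all segments have the same count, was 0.886 to 0.955. Pseudogene rows took 24.3% to 37.1% of it, beside the 37.8% of rows that are pseudogenes. The median over all 185 rows, which uses no such limit, was 0.0189 to 0.0362 CPM in the liver, 0.015 to 0.0393 CPM in the duodenum and 0.0149 to 0.0367 CPM in the pancreas libraries. The V segments of the T cell receptor alpha chain (Trav, 130 rows) gave low counts too, taken without a limit, with summed levels of 3.40 to 7.13 CPM, an evenness of 0.876 to 0.952 and a median row at 0.0141 to 0.0421 CPM. The source of this layer was not tested.

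The number of segments with 10 or more counts did not follow the summed level. This minimum lies within the low layer, since the median count of a row was 4 to 14 over the libraries. The number therefore also reflects the size of that layer. It was 86, 96, 38 and 81 in liver 1 to 4, 62, 128, 51 and 73 in duodenum 1 to 4, and 93, 52, 40 and 75 in pancreas 1 to 4. The tissues overlapped widely, the means over 4 libraries being 75.3 ± 25.6 (SD) for liver, 78.5 ± 34.2 for duodenum and 65.0 ± 23.6 for pancreas. The difference was -3.25 segments for liver against duodenum (exact permutation p = 0.914), -13.5 for pancreas against duodenum (p = 0.6, exact permutation) and 10.3 for liver against pancreas (p = 0.629, exact permutation). This measure turned direction without liver 3 (9.17 for liver against duodenum) and without duodenum 2 (13.3 for liver and 3 for pancreas against duodenum).

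A higher count minimum separated duodenum from the other tissues. Segments with 100 or more counts numbered 12, 12, 11 and 16 in the duodenum libraries, 0, 2, 0 and 0 in liver, and 0, 0, 1 and 1 in pancreas. Segments with 1000 or more counts numbered 10, 7, 10 and 11 in duodenum, 0, 1, 0 and 0 in liver, and 0, 0, 1 and 1 in pancreas. At the minimum of 100 counts the mean difference was -12.3 segments for liver and for pancreas against duodenum (exact permutation p = 0.0286, adjusted p = 0.0429 for each). When every library was thinned to 1204 Ighv counts, the total of liver 3, the expected number of segments with 10 or more counts was higher by 24.8 in liver and by 16.4 in pancreas than in duodenum, with overlap (exact permutation p = 0.143 and 0.429, adjusted p = 0.429 and 0.643). In a version chosen after seeing the data, the expected number with at least 1 count was also higher in liver and pancreas. It was 163, 122, 150.0 and 164 in liver, 22.7, 18.8, 18.2 and 21.3 in duodenum, and 158, 144, 103 and 101 in pancreas, with no overlap between duodenum and either other tissue (exact permutation p = 0.0286, adjusted p = 0.0429 for each). Thinning removes most of the low layer from duodenum, where the totals were far larger, and leaves liver 3 whole. The thinned numbers therefore follow largely from the summed level. Their p-values are no test of how many segments were used. Without thinning, 150 to 168 rows had a count in liver, 148 to 174 in duodenum and 143 to 161 in pancreas.

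**Figure D2:**
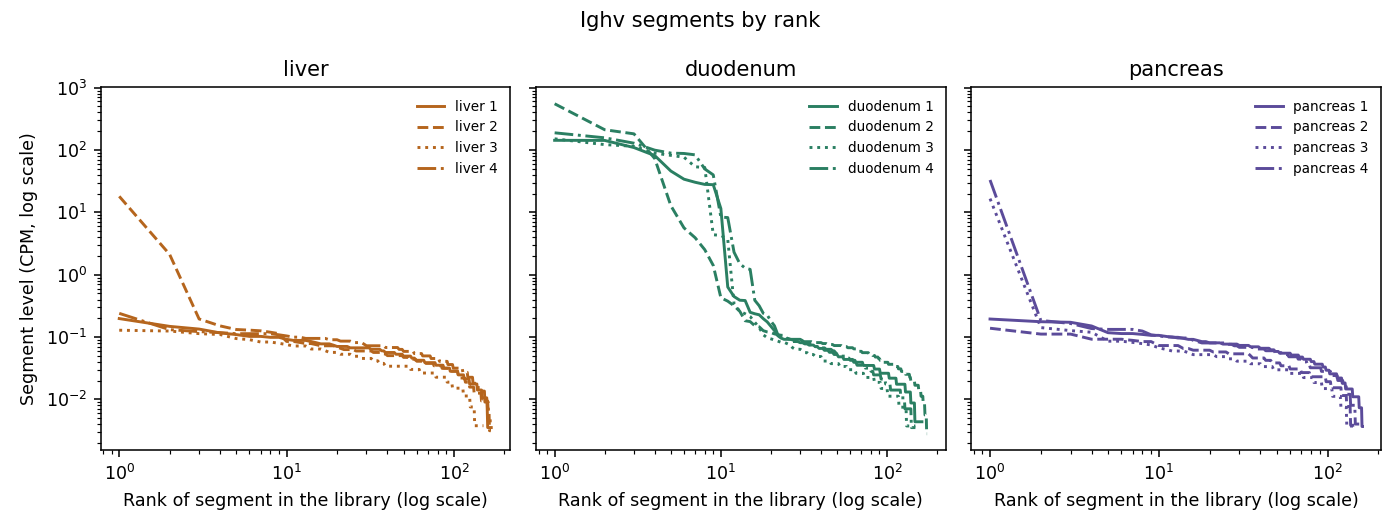
Level of each Ighv segment, in CPM, against its rank within the library, both on log axes, with a line for each library. Duodenum curves stay high over the leading segments and then fall to the low layer, liver 2 and pancreas 3 and 4 fall to it after 1 or 2 segments, and liver 1, 3 and 4 and pancreas 1 and 2 show only the layer.

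A few segments held nearly all Ighv counts in the duodenum libraries. The leading 5 segments of each library took 78.9%, 97.8%, 73.6% and 69.6% of its Ighv counts in duodenum 1 to 4, and the leading 10 took 98.8%, 99.2%, 98.9% and 97.9%. In liver 1 to 4 the leading 5 took 10.4%, 78.0%, 12.5% and 9.05%, and in pancreas 1 to 4 they took 10.7%, 10.97%, 82.5% and 84.2%. Liver 2 and pancreas 3 and 4 lay within the duodenum range, and the other libraries of these tissues far under it. To reach 90% of the Ighv counts took 8, 4, 7 and 8 segments in duodenum, 116, 54, 100 and 116 in liver, and 110, 101, 34 and 31 in pancreas.

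The share of the leading 5 differed by -52.5 percentage points for liver against duodenum (exact permutation p = 0.0857, adjusted p = 0.257), by -32.9 for pancreas against duodenum (exact permutation p = 0.286) and by -19.6 for liver against pancreas (exact permutation p = 0.257). Without liver 2, pancreas 3 and pancreas 4 the first 2 differences were -69.3 and -69.2 points with no overlap, and exact permutation p = 0.0571 and 0.133, and liver against pancreas differed by -0.16. The share of the leading 10 did not overlap between duodenum and either other tissue, with differences of -64.9 and -46.8 points (exact permutation p = 0.0286, adjusted p = 0.0429 for each).

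**Figure D3:**
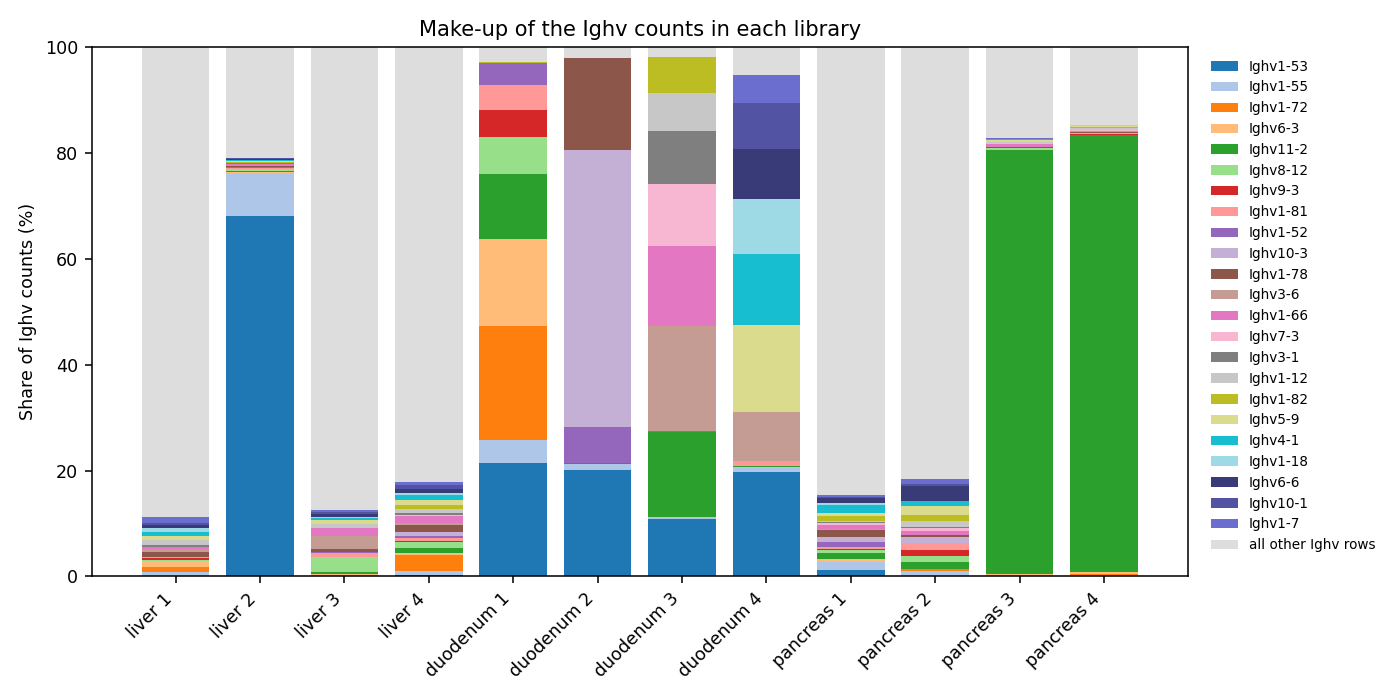
Share of Ighv counts, in percent, in each of the 12 libraries. Colours are the segments that took at least 4% in some library and were among its leading 8, and grey is every other Ighv row. Ighv1-53 takes 21.5%, 20.1%, 10.8% and 19.8% of duodenum 1 to 4, and most other colours differ between these bars. Ighv1-53 fills 68.2% of liver 2, and Ighv11-2 fills 80.2% and 82.6% of pancreas 3 and 4.

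Evenness over all Ighv rows showed the same split. It was 0.953, 0.383, 0.941 and 0.955 in liver 1 to 4, 0.421, 0.264, 0.429 and 0.450 in duodenum 1 to 4, and 0.952, 0.952, 0.286 and 0.257 in pancreas 1 to 4. Expressed as an effective number of equally used segments, these are 131, 7.10, 112 and 133 in liver, 8.50, 3.89, 8.51 and 9.48 in duodenum, and 126, 114, 4.14 and 3.64 in pancreas. Duodenum evenness was 0.391 ± 0.086 (SD, n = 4), against 0.808 ± 0.283 in liver and 0.612 ± 0.393 in pancreas. The difference was 0.418 for liver against duodenum (exact permutation p = 0.114, adjusted p = 0.343), 0.221 for pancreas against duodenum (exact permutation p = 0.4) and 0.196 for liver against pancreas (exact permutation p = 0.286). Without liver 2, pancreas 3 and pancreas 4 the values were 0.559, 0.561 and -0.0023, with exact permutation p = 0.0571, 0.133 and 1.

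Pseudogene rows took a far smaller share of Ighv counts in the duodenum libraries than in 5 of the liver and pancreas libraries. Their share of all Ighv counts was 37.1%, 8.36%, 33.3% and 32.5% in liver 1 to 4, and 32.5%, 32.1%, 5.43% and 5.91% in pancreas 1 to 4. In duodenum 1 to 4 it was 0.322%, 0.257%, 0.189% and 0.178%. These are shares of summed Ighv levels of 662 to 1054 CPM in duodenum. In liver 1, 3 and 4 and pancreas 1 and 2 the sums were 4.55 to 8.00 CPM. The smaller share therefore does not show a lower level of pseudogene rows in duodenum. None of the 29 segments that reached 1000 counts in some library is annotated as a pseudogene (0 of 29, beside 37.8% of all rows). Pseudogenes were among the leading 5 segments of all 4 liver libraries and of pancreas 1 and 4, at under 100 counts each, and Ighv1-86, named after its values were seen, led liver 3 with 34 counts.

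**Figure D4:**
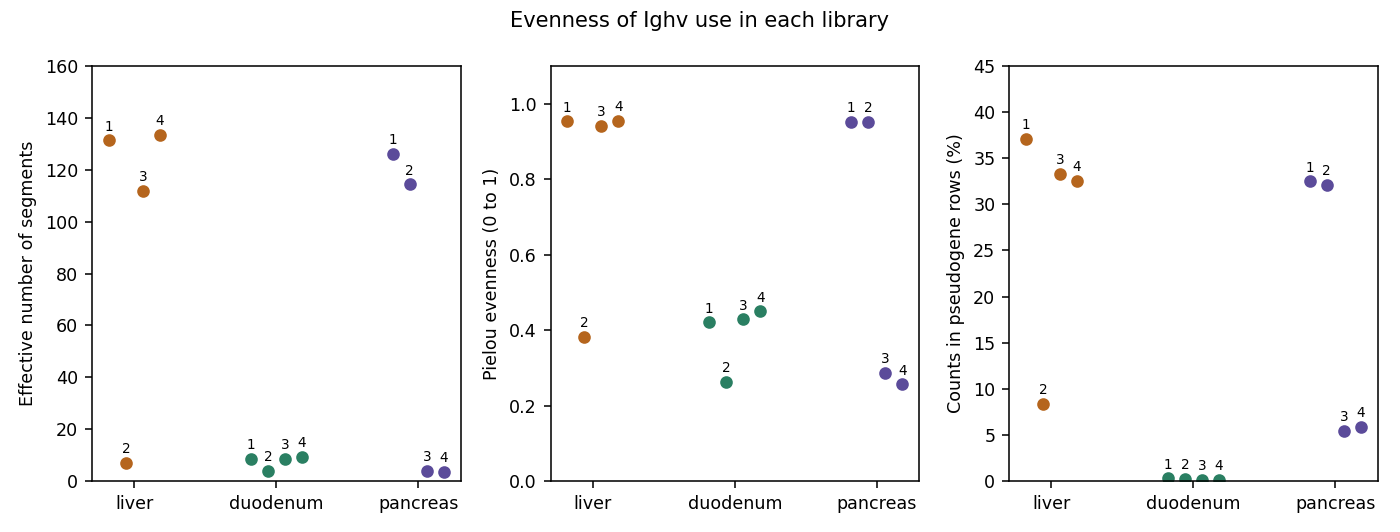
Effective number of segments, Pielou evenness and the percent of Ighv counts in pseudogene rows, for each library by tissue. Liver 2 and pancreas 3 and 4 lie with or near the duodenum libraries in the first 2 panels, at effective numbers of 7.10, 4.14 and 3.64.

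The leading segments of the duodenum were largely different from library to library. The 29 segments with 1000 or more counts in some duodenum library, a group formed from the values themselves and described without a test, made up 38 pairs of library and segment. Of these segments, 23 passed 1000 counts in exactly 1 duodenum library, 4 in 2 libraries, 1 in 3 (Ighv1-55) and 1 in all 4 (Ighv1-53). Any pair of duodenum libraries had 1 to 3 such segments in common. Morisita-Horn similarity, which is 1 for identical shares and 0 for no shared segment, was 0.0906 to 0.319 between duodenum libraries, and 0.572 to 0.678 among liver 1, 3 and 4 and pancreas 1 and 2. It was 0.999 between pancreas 3 and 4.

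Duodenum 1 was led by Ighv1-72 with 32686 counts (21.6%), Ighv1-53 with 32561 (21.5%) and Ighv6-3 with 25033 (16.5%). Per length the order was different, with Ighv1-53 at 739 TPM, the deposited length-scaled unit, Ighv1-72 at 622 and Ighv6-3 at 556. Ighv10-3 took 52.4% of duodenum 2 with 196441 counts, followed by Ighv1-53 (20.1%) and Ighv1-78 (17.3%). Duodenum 3 was led by Ighv3-6 (19.9%, 826 TPM), Ighv11-2 (16.1%, 434 TPM) and Ighv1-66 (15.1%, 509 TPM). Ighv1-53 (19.8%), Ighv5-9 (16.5%) and Ighv4-1 (13.5%) led duodenum 4. The 95% Wilson intervals of the leading segment's share, over all libraries, reached at most 1.05 percentage points to either side and cover counting error only.

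**Figure D5:**
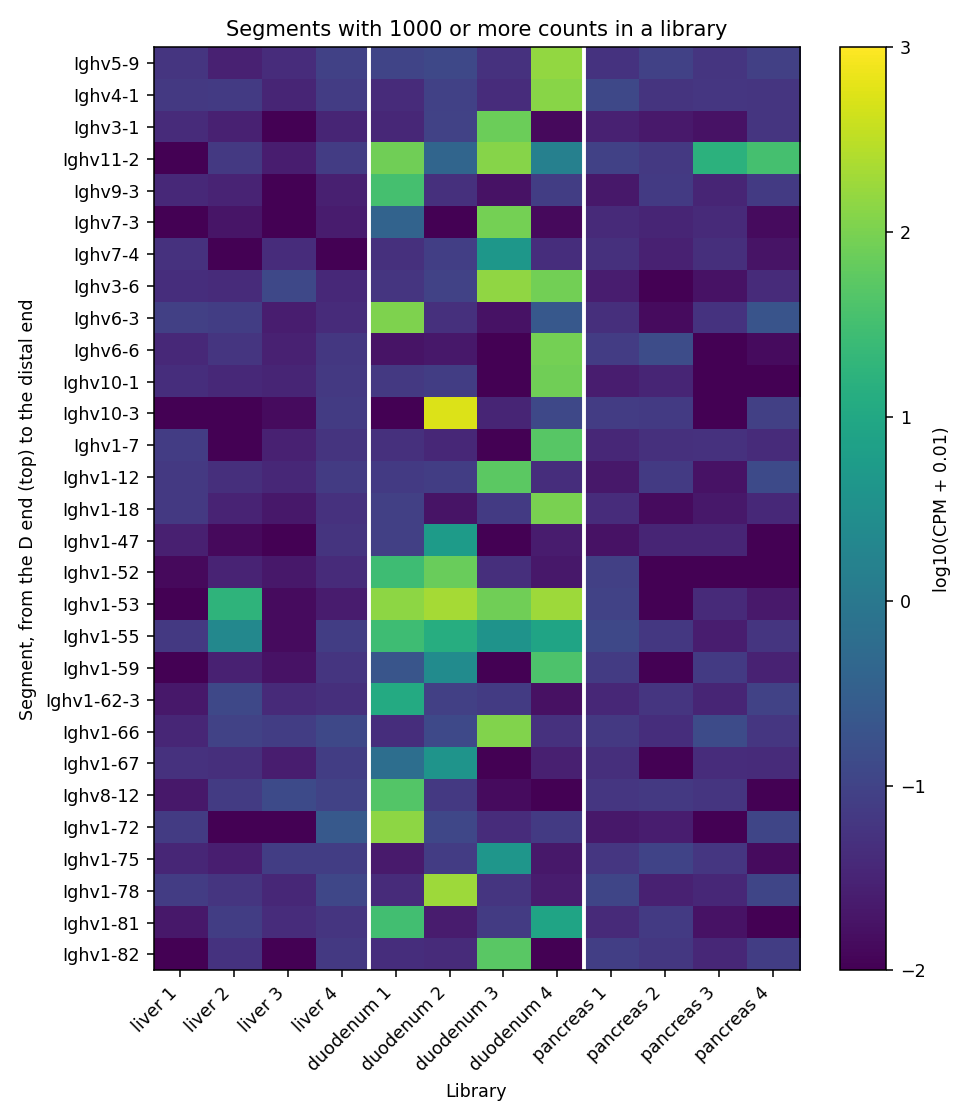
Level of the 29 segments with 1000 or more counts in a library, as log10(CPM + 0.01), in the 12 libraries. Rows follow the order of the segments on the locus in GENCODE vM21, from the D segments outward. Ighv1-53 is high in all 4 duodenum libraries and in liver 2, Ighv11-2 in duodenum 1 and 3 and in pancreas 3 and 4, and most other rows are high in 1 library.

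Ighv1-53 was the segment common to all duodenum libraries. It stood at 142.5, 211.5, 82.0 and 189 CPM in duodenum 1 to 4, at 0, 18.1, 0.0038 and 0.0136 CPM in liver 1 to 4, and at 0.0881, 0, 0.0298 and 0.0121 CPM in pancreas 1 to 4. Each duodenum library lay above every library of the other tissues, and liver 2 was the only other library above 0.1 CPM. For pancreas against duodenum the fitted log2 difference was -12.28 ± 2.95 (SE, edgeR adjusted p = 0.0325), a call that ended without duodenum 1, 3 or 4 or any 1 of the 4 pancreas libraries (edgeR adjusted p = 0.0544 to 0.106). For liver against duodenum it was -5.26 ± 2.11 (edgeR adjusted p = 0.203), and for liver against pancreas 7.02 ± 2.53 (edgeR adjusted p = 0.388). With liver 2, pancreas 3 and pancreas 4 left out, liver against duodenum gave -14.91 ± 0.99 (edgeR adjusted p = 2.01e-05). Pancreas against duodenum then gave -11.97 ± 1.02 (edgeR adjusted p = 7.46e-05). Liver against pancreas then turned to -2.94 ± 1.21 (edgeR adjusted p = 0.709). Liver 2 was left out for Ighv counts of which Ighv1-53 itself made up 68.2%. These values therefore describe the remaining libraries and are not a test of the segment.

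Ighv1-55 had the next widest spread. It stood at 27.8, 12.8, 3.69 and 8.39 CPM in duodenum 1 to 4, at 0.0565, 2.12, 0.0038 and 0.0724 CPM in liver 1 to 4, and at 0.114, 0.0538, 0.0149 and 0.0482 CPM in pancreas 1 to 4. All 4 duodenum libraries were above the rest. Its difference was -7.94 ± 1.67 for pancreas against duodenum (edgeR adjusted p = 0.0138) and -4.70 ± 1.40 for liver against duodenum (edgeR adjusted p = 0.074). The first of these, a call, ended without pancreas 2 or pancreas 4 (edgeR adjusted p = 0.0571 for each) and held under 20 of 22 other settings. With liver 2, pancreas 3 and pancreas 4 left out, the difference was -7.49 ± 1.06 for pancreas (edgeR adjusted p = 0.0022). For liver it was then -8.44 ± 0.93 (edgeR adjusted p = 0.000422). As for Ighv1-53, these values are descriptive, since the 3 libraries were picked by their Ighv counts. The libraries with more than 2 CPM of Ighv1-55 were those with more than 2 CPM of Ighv1-53, with which it shares 33.0% of its words, and the part of reads placed on either in error was not tested.

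Ighv11-2, a segment known from B-1a cells that bind phosphatidylcholine, was high in libraries of both duodenum and pancreas. It stood at 81.5, 0.427, 122 and 1.5 CPM in duodenum 1 to 4, at 0.0807, 0.0577, 16.6 and 33.1 CPM in pancreas 1 to 4, and at 0, 0.0566, 0.0151 and 0.0679 CPM in liver 1 to 4. Duodenum and pancreas libraries overlapped, and every liver library was below every duodenum library. The log2 difference was -10.76 ± 3.00 for liver against duodenum (edgeR adjusted p = 0.0643), -2.16 ± 1.97 for pancreas against duodenum (edgeR adjusted p = 0.662) and -8.61 ± 2.81 for liver against pancreas (edgeR adjusted p = 0.31). Without liver 2, pancreas 3 and pancreas 4 these were -11.23 ± 2.96, -9.81 ± 3.32 and -1.42 ± 2.99, none of them called (edgeR adjusted p = 0.111, 0.234 and 1).

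Ighv3-6 and Ighv10-3 were high in fewer duodenum libraries. Ighv3-6 stood at 0.0481, 0.0871, 151 and 88.0 CPM in duodenum 1 to 4, against 0.0272 to 0.110 in liver and 0 to 0.0322 in pancreas. Its lowest duodenum libraries lay inside the liver range and above the pancreas range. The log2 difference was -10.42 ± 2.57 for liver (edgeR adjusted p = 0.0389) and -12.26 ± 2.85 for pancreas (edgeR adjusted p = 0.0284) against duodenum. The liver call held under 5 of 21 other settings and ended when any 1 of the 8 liver and pancreas libraries, duodenum 3 or duodenum 4 was left out. The pancreas call held under 10 of 21 and ended without any 1 of the 4 pancreas libraries, duodenum 3 or duodenum 4. Ighv10-3 was at 552 CPM in duodenum 2 and at 0, 0.0225 and 0.109 CPM in duodenum 1, 3 and 4, and was not called (log2 difference -13.15 ± 3.94 for liver against duodenum, edgeR adjusted p = 0.0833).

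Some lesser segments were high beside a close relative. Ighv1-62-3 stood at 11.5 CPM in duodenum 1 and at no more than 0.113 CPM elsewhere. Its close copy Ighv1-72 was at 143 CPM in the same library and at no more than 0.240 CPM elsewhere. Ighv10-1, which shares 40.7% of its words with Ighv10-3, went another way: it stood at 83.7 CPM in duodenum 4, where Ighv10-3 had 0.109 CPM, and at 0.0702 CPM in duodenum 2.

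The 29 segments came from 10 of the 16 families and from the whole length of the locus. Counted from the D segments outward they lay between positions 15 and 181 of 185, with 14 in the nearer part and 15 in the farther part. Ighv1 supplied 16 of the 29, beside 50.3% of all rows. Its share of Ighv counts was 58.6%, 47.1%, 41.3% and 42.2% in duodenum 1 to 4, and 48.2% to 56.7% in liver 1, 3 and 4 and pancreas 1 and 2. It was 87.8% in liver 2, and 10.7% and 9.31% in pancreas 3 and 4. The family Ighv2 (11 rows) had no segment at 1000 counts in duodenum and reached 0.0518% to 0.0810% there. In liver 1, 3 and 4 and pancreas 1 and 2 it took 4.71% to 11.4%. These are shares of summed Ighv levels of 662 to 1054 CPM in duodenum and 4.55 to 8.00 CPM in those other libraries. They do not show that the level of the Ighv2 rows was lower in duodenum.

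In the test of each segment over libraries, few segments were called. Of the Ighv rows, 118 of 185 passed the filter on low counts, among them 26 of the 29 leading segments. Ighv1-47, Ighv3-1 and Ighv7-3 did not pass it. In liver against duodenum 6 of 118 tested segments were called, all lower in liver (5.08%, where 7.32% of all genes were called, 3.95% as lower and 3.37% as higher). In pancreas against duodenum 10 of 118 were called, all lower in pancreas (8.47%, where 7.7% of all genes were called, 3.94% as lower and 3.76% as higher). Liver against pancreas gave 0 calls in edgeR (1.11% of all genes were called, 0.681% as lower and 0.426% as higher in liver), with 5 segments at an unadjusted p under 0.05. DESeq2 called 2 segments there, Ighv1-53, which was above 0.1 CPM in liver 2 alone of these 8 libraries, and Ighv11-2, which was so in pancreas 3 and 4 alone, and limma on log2(TPM + 0.1) called 1, Ighv5-4.

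The median log2 difference of the tested segments was -0.43, -0.58 and -0.00 in these comparisons, beside 0.10, 0.09 and 0.01 over all genes tested. A row could pass the filter through its duodenum counts, and the tested rows included 26 of the 29 leading segments. These medians and the direction of the calls can therefore come in part from the filter. The median level over all 185 rows, given above, overlapped between the tissues. Segments whose libraries did not overlap numbered 4 in liver against duodenum (15.4% of all genes), 5 in pancreas against duodenum (13.7%) and 3 in liver against pancreas (7.29%). The shares called and not overlapping were thus near or under the background, other than for calls in the lower direction in pancreas.

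In both comparisons with duodenum 5 segments were called, which share the duodenum libraries: Ighv3-6, Ighv7-4, Ighv1-50, Ighv1-52 and the pseudogene Ighv1-14. Ighv9-4 was called for liver only, and Ighv1-53, Ighv1-55, Ighv1-67, Ighv1-81 and Ighv5-4 for pancreas only, with no test of the difference. Of the 5 called in both, the liver and pancreas calls held under 5 of 21 and 10 of 21 other settings for Ighv3-6, 4 of 20 and 4 of 20 for Ighv7-4, 13 of 20 and 12 of 21 for Ighv1-50, 5 of 20 and 5 of 21 for Ighv1-52, and 8 of 20 and 13 of 21 for Ighv1-14. Of the others, the call held under 12 of 20 settings for Ighv9-4, 4 of 20 for Ighv1-67, 5 of 21 for Ighv1-81 and 14 of 19 for Ighv5-4, beside 15 of 22 and 20 of 22 for Ighv1-53 and Ighv1-55. Apart from Ighv1-53, Ighv1-55 and Ighv3-6, the called segments are named because they were called, after their values were seen. Ighv1-52 was at 28.1 and 73.0 CPM in duodenum 1 and 2 and under 0.1 CPM in every other library. Ighv1-14 rested on counts of 102, 21, 38 and 51 in duodenum 1 to 4, 11, 14, 4 and 16 in liver, and 12, 8, 5 and 15 in pancreas. Ighv5-4 rested on counts of 20, 22, 11 and 10 in duodenum and 2, 0, 1 and 3 in pancreas.

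The count of calls depended on single libraries. For liver against duodenum it was 0 without liver 1, 1 without liver 3, 2 without liver 2, liver 4 or pancreas 2, 3 without pancreas 1 or pancreas 4, and 14 without duodenum 2. For pancreas against duodenum it was 1 without pancreas 1 or pancreas 2, 2 without pancreas 3, 3 without pancreas 4, 4 without duodenum 1 and 6 without any of the 4 liver libraries, and without liver 2, pancreas 3 and pancreas 4 together the counts were 3 and 2.

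Light chain V segments were concentrated in the same libraries as the heavy chain ones. The summed level of the 160 Igkv rows (kappa light chain V segments) was 1480, 1365, 1026 and 1908 CPM in duodenum 1 to 4. It was 296 CPM in liver 2, and 255 and 317 CPM in pancreas 3 and 4, and 3.66 to 5.95 CPM in the other 5 libraries. Named after their values were seen, Igkv14-126 took 60.6% and Igkv3-2 took 37.6% of the Igkv counts of liver 2, and Igkv14-126 took 98.3% and 97.8% in pancreas 3 and 4. Igkv14-126 is known as a light chain partner of Ighv11-2 in B-1a cells. In duodenum 1 and 3, where Ighv11-2 was also high, Igkv14-126 stood at 0.0700 and 0.0150 CPM, beside 251 and 310.4 CPM in pancreas 3 and 4. Liver 2 held Igkv14-126 at 179 CPM with Ighv11-2 at 0.0566 CPM. Which heavy and light chains come from the same cells cannot be read from bulk libraries.

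The constant region that stood beside the V segments differed between the duodenum libraries, liver 2, and pancreas 3 and 4. Compared per length in TPM, the summed Ighv level was 3128, 4787, 3744 and 4555 in duodenum 1 to 4, beside 3362, 5263, 3655 and 4624 for the summed heavy chain constant genes, of which Igha, the constant region of IgA, made up 3207, 5155, 3501 and 4475. In liver 2 the Ighv sum was 136.5 TPM and the IgG constant genes came to 155 TPM, nearly all of it Ighg3, at 262 CPM there and at no more than 2.22 CPM in any other library (named after its values were seen). In pancreas 3 and 4 the Ighv sums were 77.7 and 146 TPM, and Ighm, the constant region of IgM, stood at 204 and 239 TPM, against 94.9 and 94.6 TPM in pancreas 1 and 2. Ighm was at 87.6 to 120.4 TPM in the liver and duodenum libraries, in which Ighv ranged from 23.3 to 4787 TPM.

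Most plasma cell genes, like the Ighv level, were higher in duodenum than in the other tissues, and their part in the Ighv level was not tested. Jchain was at 1054, 1849, 1061 and 1821 CPM in duodenum, 77.3 CPM in liver 2, 96.4 and 148 CPM in pancreas 3 and 4, and 0.721 to 2.17 CPM in the other libraries. It was not called in either comparison with duodenum (edgeR adjusted p = 0.137 for liver and 0.259 for pancreas). Of 14 plasma cell genes, 9 were called lower for liver and 10 for pancreas against duodenum, and 0 higher, beside 7.32% and 7.7% of all genes called in either direction. They include the syndecan Sdc1 (log2 difference -4.01 ± 0.40 for liver and -2.49 ± 0.38 for pancreas, edgeR adjusted p = 2.72e-05 and 0.000688), the survival receptor Tnfrsf17 (-5.03 ± 0.42 and -4.67 ± 0.41, edgeR adjusted p = 5.35e-06 and 5.34e-06) and the octamer coactivator Pou2af1 (-4.91 ± 0.47 and -3.85 ± 0.45, edgeR adjusted p = 1.89e-05 and 6.73e-05). Xbp1, Txndc5 and Fkbp11 were called in neither comparison. Within liver and pancreas some plasma cell genes followed Ighv and others did not. Mzb1 was at 2.51 CPM in liver 2, against 0.1165 to 0.310 CPM in the other liver libraries. In pancreas 3 and 4 Mzb1 was at 0.638 and 1.34 CPM, against 0.242 and 0.288 CPM in pancreas 1 and 2. By contrast liver 2, with 0.409 CPM of Sdc1 and 0.126 CPM of Pou2af1, lay below liver 1 in the first (0.689 CPM). In the second it lay below liver 3 (0.212 CPM). Pancreas 4 had less Pou2af1 (0.104 CPM) than pancreas 1 (0.198 CPM). The summed plasma cell list was 1572 to 2405 CPM in duodenum and 334 to 497 CPM in the other tissues, and none of its genes was at 0 in any library. Jchain carried most of this gap: the other 13 genes summed to 506 to 584 CPM in duodenum, 382 to 416 CPM in liver and 333 to 391 CPM in pancreas.

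B cell genes were called in both directions. The summed level of 16 B cell genes was 60.2 to 71.6 CPM in the duodenum libraries, 102 to 120.0 CPM in the liver and 132 to 172 CPM in the pancreas libraries. Fcrla alone, an Fc receptor-like protein of B cells, set this order, at 6.52 to 17.9, 57.3 to 68.2 and 95.1 to 123 CPM. The other 15 genes summed to 46.2 to 64.1 CPM in duodenum, 38.4 to 51.8 CPM in liver and 34.2 to 49.0 CPM in pancreas, with the lowest mean in pancreas. Liver against duodenum had 2 members called higher (Fcrla, Tnfrsf13c) and 2 lower (Vpreb3, Cd79b), and pancreas against duodenum 2 higher (Fcrla, Ighd) and 3 lower (Vpreb3, Cd72, Bank1). The call of Vpreb3 in pancreas ended without liver 2, pancreas 3 and pancreas 4. Ms4a1, which encodes CD20, stood at 3.32 to 8.94 CPM over the 12 libraries. Cd79a, a signalling chain of the B cell receptor, was at 3.26, 7.07, 3.84 and 4.93 CPM in duodenum, 2.63 CPM in liver 2, 2.02 and 2.44 CPM in pancreas 3 and 4, and 0.165 to 0.294 CPM in the other libraries.

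Heavy chain constant genes were called lower than in duodenum for 4 of 8 members in liver (Igha, Ighg1, Ighg2b, Ighg2c) and for the same 4 symbols in pancreas, where Ighd was called higher. Light chain constant genes were called lower for 2 of 4 in liver and 1 of 4 in pancreas, and octamer factor genes for 1 of 3 and 2 of 3. These lists are small, and over all genes 7.32% were called in liver and 7.7% in pancreas against duodenum, in either direction. Of 93 Igkv rows tested, 8 were called lower and 1 higher in liver (9.68%), and 9 lower in pancreas (9.68%). Of all genes, 3.95% were called lower in liver and 3.94% in pancreas, so the Igkv calls in the lower direction were above the background. Of 3 Iglv rows 1 was called lower in each. Trav rows gave 1 higher and 2 lower of 88 in each of these comparisons (3.41%), and Trbv rows 0 of 20, with 0 and 1 at an unadjusted edgeR p under 0.05. Markers of other cells that such a gate could hold were called in both directions. In liver against duodenum they gave 0 of 8 for plasmacytoid DCs (1 at an unadjusted p under 0.05), 2 lower of 9 for T cells, and 1 lower and 1 higher of 9 for macrophages. In pancreas against duodenum they gave 1 lower and 1 higher, 1 lower, and 1 lower and 2 higher. The type 1 DC genes gave 1 lower and 1 higher of 8 in liver, and 2 lower and 1 higher in pancreas.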

How the data were processed

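Bulk RNA-seq of migratory DCs from liver, duodenum and pancreas was analysed, with 4 libraries a tissue. Groups and replicate numbers came from the labels. The authors used kallisto with build GRCm39, per the submitters' processing notes, and neither version nor index nor strand setting is given in the sources used here. Deposited were a table of the authors' estimated counts and another of TPM, scaled by gene length and library, each with 55401 genes. Checked on 12632 genes with over 1 TPM throughout, 0 of them Ighv rows, the ratio of deposited estimated count to TPM split into a gene term and a library term, to within 1.1e-09 on the log2 scale. The 18 pairs of replicate libraries differed beyond sampling noise, with chi-square per degree of freedom of 80.1 to 425.

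Estimated counts were rounded to whole numbers. CPM is the count scaled to the library total. Shares, evenness (Shannon entropy over the log of the number of segments with a count) and effective number (the exponential of the entropy) were computed from counts in each library with Python 3.11.15, and differences of tissue means were tested with exact two-sided permutation tests (scipy 1.17.1), adjusted by Benjamini-Hochberg over the 3 tissue pairs of each of 4 measures. Wilson 95% intervals cover counting error only. Single genes were tested with edgeR 4.0.16 in R 4.3.3 (quasi-likelihood F test, robust, TMM, filterByExpr with a minimum count of 10, 44624 genes, all 12 libraries in 1 model), with calls at a Benjamini-Hochberg adjusted p under 0.05. An SE is the log2 difference over the square root of F. The test script was checked on simulated data. The changed genes there stood at higher levels than most Ighv rows. The check therefore does not cover rows at low counts or with the spread of the leading segments. DESeq2 1.42.0, limma 3.58.1 and other scalings, filters and sets of libraries were alternatives. The TPM table gave the symbols, the TPM values and sums printed, the limma alternatives, and alternatives of the summed level, leading share and evenness.

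Segments named by rule were the 3 with the largest share in each library, the 5 with the largest mean share in each tissue, and those called with a mean of 10 CPM or more on the higher side whose tissues did not overlap. Context genes were up to 3 called members of each list per comparison and a fixed few. Other names were chosen after their values were seen. The result of 1 further gene list is not reported here. The members and lists were chosen with earlier results of these data known. Transcripts, types and the order of segments came from GENCODE vM21 (GRCm38) by gene identifier, for all 185 Ighv rows. Because the builds differ, no coordinates are printed.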

Additional observations from a re-analysis of the deposited data

Results flagged for a closer look

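Of 33 groups of 4 libraries examined, 15 had 1 library whose gap to its nearest neighbour, as a part of the group's range, was above Dixon's 95% critical value, and chance alone gives this in about 1 in 20 groups of normal values. Many of these groups rest on the same counts and are not independent, so the tally is a description.

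In liver, library 2 stood apart in 5 measures, which are not independent, since Ighv1-53 made up 68.2% of its Ighv counts. Its summed Ighv level was 26.5 CPM, the share of its leading 5 segments 78.0%, its evenness 0.383, its pseudogene share 8.36% and its Ighv1-53 level 18.1 CPM.

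In duodenum the libraries that stood apart differed by segment. Duodenum 1 was alone at the high end for Ighv1-72 (143 CPM), Ighv6-3 (109.5 CPM) and Ighv8-12 (46.0 CPM). Duodenum 2 was alone for Ighv10-3 (552 CPM) and Ighv1-78 (182 CPM), and had the lowest evenness, 0.264. Duodenum 3 was alone for Ighv1-66 (115 CPM). Duodenum 4 was alone for Ighv5-9 (157 CPM), Ighv4-1 (129 CPM) and Ighv6-6 (89.2 CPM). These segments were named for their large share in 1 library, so a library that stands apart was likely to be found among them.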

How the results depend on the processing

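Counts of called Ighv segments moved with the setting. For liver against duodenum (6 calls) there were 3 with no filter on low counts, 2 with a minimum count of 50, which left 3 segments tested, 3 with limma on log2(TPM + 1), 1 with only the 2 tissues compared, and 3 without liver 2, pancreas 3 and pancreas 4, and leaving out 1 library gave 0 to 14. For pancreas against duodenum (10 calls) the same settings gave 6, 2, 4, 3 and 2, limma on log2(TPM + 0.1) gave 5, and leaving out 1 library gave 1 to 13. For liver against pancreas (0 calls) DESeq2 gave 2 and limma on log2(TPM + 0.1) gave 1, and leaving out 1 library gave 0. With a replicate block the counts were 1, 3 and 0. No label says that the replicate numbers mark a shared animal or day. Over 12 pairs with the same number, deviations from the tissue means correlated at -0.0406 to 0.0923. Of 12 libraries, 3 correlated best with their own number. With 4 libraries a tissue these correlations cannot show whether the libraries were paired.

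The summed level kept its direction and its lack of overlap against duodenum in every setting run, with differences of -7.06 to -6.22 for liver and -6.51 to -5.51 for pancreas when 1 library was left out, where an exact permutation test of 3 against 4 libraries cannot go below p = 0.0571, and of -7.06 and -7.10 without liver 2, pancreas 3 and pancreas 4 (an alternative chosen after seeing the data, as are those marked added). Liver against pancreas ranged from -1.08 to -0.03 with 1 library left out and turned to 0.23 without each library's own leading segment (added) and to 0.0311 without those 3 libraries.

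The number of segments with 10 or more counts turned with the minimum. For liver against duodenum it was 6.75 at 5 counts, -12.3 at 100 and -9.25 at 1000 (added), and 24.8 after thinning, or 129 for segments with 1 or more counts after thinning (added). For pancreas against duodenum it was -12.3 at 100, -9 at 1000, and 16.4 and 106 after thinning. For liver against pancreas it was 0 at 100, -0.25 at 1000, and -4.17 without liver 2, pancreas 3 and pancreas 4 (added). With 1 library left out these ranged from -12.4 to 13.3, from -22.8 to 3 and from 1.92 to 22.7.

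The share of the leading segments against duodenum was -64.9 (liver) and -46.8 points (pancreas) for the leading 10, both past the threshold, and 13.6 for pancreas for the leading 1. With 1 library left out, the leading 5 ranged from -69.3 to -46.4 for liver and -45.3 to -20.8 for pancreas against duodenum, and from -36.4 to -7.23 for liver against pancreas. Evenness ranged from 0.369 to 0.559, 0.108 to 0.340 and 0.0780 to 0.338, and turned to -0.0023 for liver against pancreas without liver 2, pancreas 3 and pancreas 4 (added). The causes of these changes were not tested. Ighv counts were few in liver and pancreas, 1204 in the smallest total, at library totals like those of duodenum, and 4 libraries a tissue limit every test.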
